A study of Homo sapiens with 19 samples.

Results

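Gene expression in libraries labelled TMD8 was compared with that in libraries labelled SUDHL2. Both names belong to established human lines of diffuse large B-cell lymphoma, of the type called activated B-cell-like. The comparison takes 6 of the 15 RNA libraries of the series, which has 19 samples in all: 3 labelled TMD8 and 3 labelled SUDHL2. Under each label, 1 library came from cells with the inducible control hairpin sc4, 1 from cells with the EGR1 hairpin shEGR1#8 and 1 from cells with the EGR1 hairpin shEGR1#9. Libraries with the same hairpin were set against each other as 3 pairs. All the cells had been transduced with a hairpin, were grown in RPMI1640 medium with fetal bovine serum and received 20 ng/ml doxycycline for 2 days, so no library came from untransduced or uninduced cells.

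The libraries of a label differ in their hairpin and are not replicates of 1 condition. The labels do not say whether they came from separate cultures, so the spread behind the p-values may be technical. Cell line, deposited table and any batch coincide and cannot be told apart. Values are FPKM (sequenced fragments scaled to gene length and library size), brought to 1 scale by median-ratio scaling over the 6 libraries after short RNA genes were left out, and these values are called scaled FPKM. Differences are log2(scaled FPKM + 1) under the TMD8 label minus that under the SUDHL2 label, a scale that understates the change of genes with low values. Of 25242 genes named in both tables, 2039 short RNA genes were left out, and the 10830 genes with at least 1 scaled FPKM in at least 3 of the 6 libraries were tested. Per-library values are given in the order sc4, shEGR1#8 and shEGR1#9.

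Many lines of activated B-cell-like lymphoma depend on B-cell receptor or MYD88 signalling, which lead to NF-kB and to IRF4. Many also secrete cytokines that act back on them through JAK and STAT proteins. Interferons act through JAK kinases too: STAT proteins and IRF9 form a complex that binds interferon-stimulated response elements in promoters and turns on antiviral genes. SIGLEC, LILR and LAIR genes encode surface receptors of leukocytes, many of them inhibitory.

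Short RNA genes took 36.3, 60.5 and 55.5% of the FPKM in the TMD8 libraries and 53.9, 52.9 and 49.4% in the SUDHL2 libraries, against 0.470 to 0.613% in the 9 OCI-LY10 libraries of the series. Read depth is unknown, and no counting error can be given for any single value. The TMD8 sc4 library stood apart: it was at least 2-fold apart from the TMD8 libraries shEGR1#8 and shEGR1#9 in 1285 and 1160 of the tested genes, while these differed from each other in 195. RNVU1-19, a small nuclear RNA gene that the rule on short RNA genes does not cover, read 356 scaled FPKM in the TMD8 sc4 library and between 9733 and 29352 in the other 5. Replication-dependent histone genes, whose RNA mostly has no poly(A) tail, summed to 620 scaled FPKM in the TMD8 sc4 library, and to 2573 and 5899.6 in the other TMD8 libraries, against 1585 to 2084 under the SUDHL2 label. Values without the TMD8 sc4 library or its pair are given beside several results, and its part in the others was not tested.

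Most but not all markers of the labelled cell type were present in all 6 libraries. Of 20 B-cell lineage markers, 18 were tested, and the whole list summed to 973 to 1288 scaled FPKM in the TMD8 libraries and 1183 to 1254 in the SUDHL2 libraries. CR2 and FCER2 were too low to be tested: CR2 read at most 0.624 scaled FPKM, and FCER2 was listed at 0 in all 3 SUDHL2 libraries. VPREB3 was listed at 0 in the TMD8 shEGR1#8 library, and BANK1 read between 0.585 and 3.19 scaled FPKM. CD79A, a signalling chain of the B-cell receptor, read 224, 243 and 325 scaled FPKM under the TMD8 label and 251, 295 and 281 scaled FPKM under the SUDHL2 label. PAX5, the factor that maintains B-cell identity, read 61.4, 85.8 and 96.3 scaled FPKM in the TMD8 libraries and 75.5, 68.7 and 72.6 in the SUDHL2 libraries. IRF4, the factor that marks the activated B-cell-like subtype, read 477, 445 and 430.1 scaled FPKM in the TMD8 libraries, against 402, 321 and 289.98 in the SUDHL2 libraries. The groups overlapped for CD79A and PAX5 but not for IRF4, and none of the 3 passed the test. Of T and NK cell markers 2 of the 26 in the tables were tested, CD5 and GZMB, while CD3D and CD8B were listed at 0 in all 6 libraries. GZMB, the protease granzyme B, read 169, 197 and 214 scaled FPKM under the TMD8 label and 225, 251 and 228 scaled FPKM under the SUDHL2 label. Of myeloid markers 5 of 24 were tested, and CD163, ELANE, S100A8 and S100A9 were listed at 0 in all 6 libraries. No member of either list passed the test between the labels.

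The profiles under the 2 labels lay close to each other. Over the 10830 tested genes, Spearman's rho between a TMD8 and a SUDHL2 library of the same hairpin was 0.932 to 0.959, and between libraries of other hairpins 0.882 to 0.967. Within the TMD8 label rho was 0.923 to 0.971, and within the SUDHL2 label 0.963 to 0.979. TMD8 shEGR1#9 and SUDHL2 shEGR1#8 were at least 2-fold apart in 369 genes, fewer than TMD8 sc4 was from either of the other TMD8 libraries. Without the TMD8 sc4 library, pairs across labels were 2-fold apart in 369 to 750 genes, against 195 within the TMD8 label and 141 to 360 within the SUDHL2 label. These correlations are across genes, which are not independent replicates.

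**Figure D1:**
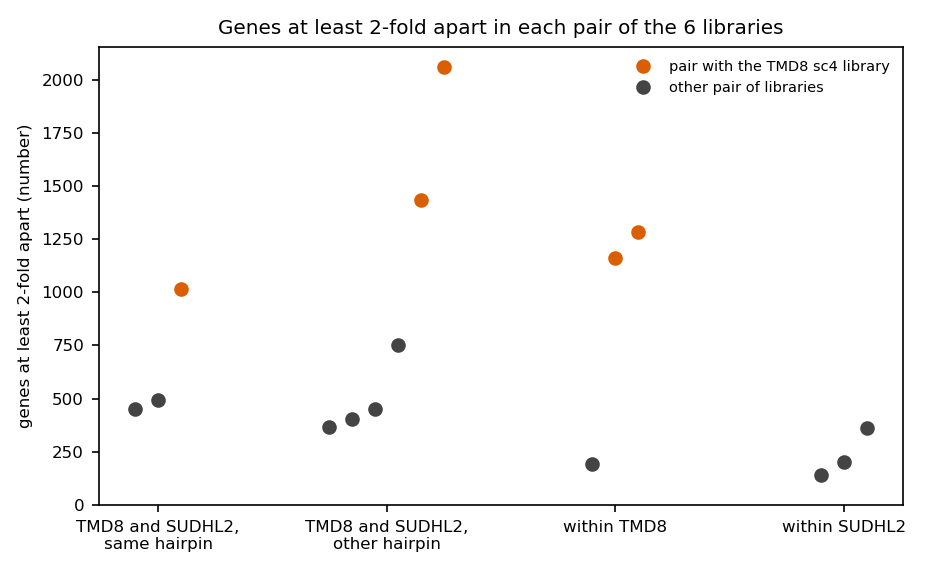
Number of genes at least 2-fold apart on the log2(scaled FPKM + 1) scale, of 10830 tested, for each pair of the 6 libraries. Each point is a pair of libraries, and orange points hold the TMD8 sc4 library. These pairs differ in 1016 to 2057 genes and the other pairs in 141 to 750 genes.

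The OCI-LY10 line of the same subtype gives a measure of how far apart lines of the series are. Values were scaled over the 15 libraries. Genes were taken with at least 1 scaled FPKM in at least 3 of the 6 libraries or at least 3 of the 9 OCI-LY10 libraries. For OCI-LY10 the mean of 3 libraries per hairpin was used, against single libraries for TMD8 and SUDHL2. Over these 11794 genes, 114 (0.967%) were at least 2-fold apart in the same direction with all 3 hairpins between TMD8 and SUDHL2. The same rule gave 2533 genes (21.5%) between TMD8 and OCI-LY10, and 3113 (26.4%) between SUDHL2 and OCI-LY10. Spearman's rho was 0.945 to 0.966 between TMD8 and SUDHL2, 0.753 to 0.803 between TMD8 and OCI-LY10, and 0.747 to 0.772 between SUDHL2 and OCI-LY10. The OCI-LY10 table may have been normalized separately and holds few short RNA reads, so these counts are a description, with no test. In the deposited SUDHL2 table, the last gene is followed by 429 lines that are identical to lines of the TMD8 table and were left out, while 0 earlier lines with a value above 0 were identical. No separate check of which line a library came from is given here. Whether the labels name the right lines was not tested, so each difference is one between labels.

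Against this closeness, 109 genes were higher and 140 lower under the TMD8 label at a limma adjusted p under 0.05, which is 1.01% and 1.29% of the genes tested. The median difference of all tested genes was 0.04 on the log2 scale, with quartiles of −0.17 and 0.27. A fixed fold gave fewer genes: 40 (0.369%) were at least 2-fold higher in all 3 pairs and 67 (0.619%) at least 2-fold lower, of which 39 and 67 were also past the test. Both directions together make 107 genes (0.988%). At 4-fold, 5 genes were higher (0.0462%) and 15 lower (0.139%), together 0.185%. Of the 249 genes past the test (2.3%), 233 had 3 libraries of 1 label beyond all 3 of the other, as did 1145 higher and 1147 lower genes of all those tested (10.6% in each direction, 21.2% together). Scaling every library to the same sum moved the split to 155 higher and 351 lower. The number of calls depends on single pairs: it was 708 higher and 689 lower without the sc4 pair, 8 and 21 without the shEGR1#8 pair, and 1 and 1 without the shEGR1#9 pair. Genes at least 2-fold apart in both remaining pairs then numbered 65 to 101 higher and 83 to 99 lower. With no hairpin block the counts were 40 higher and 46 lower, and 77 and 98 when the TMD8 sc4 library was left out as well. With no filter on low values 0 genes passed (limma, with 2501 at an unadjusted p under 0.05), and with short RNA genes kept 15 were higher and 45 lower.

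**Figure D2:**
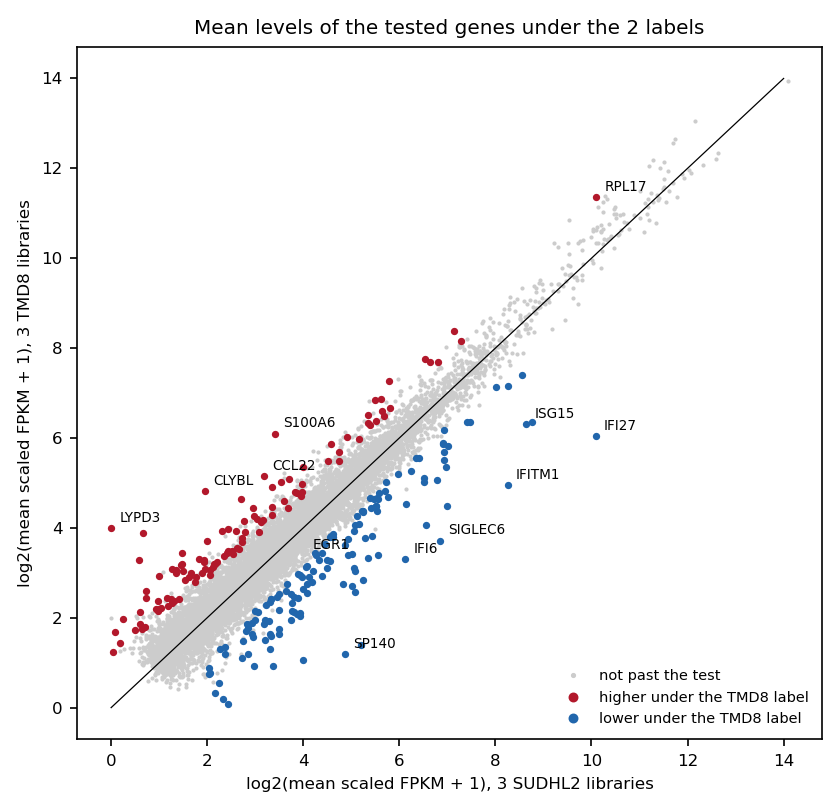
Mean level of each of the 10830 tested genes in the 3 TMD8 libraries (y axis) against the 3 SUDHL2 libraries (x axis), both as log2(mean scaled FPKM + 1). The line marks equal levels: most genes lie along it, the 109 genes higher under the TMD8 label lie above it and the 140 lower ones below it, with IFI27, OTOF, SP140, IFITM1 and SIGLEC6 farthest below.

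EGR1, the immediate early transcription factor that the hairpins target, was not past the test between the labels. It read 7.49, 11.1 and 9.92 scaled FPKM in the TMD8 libraries and 17.0, 13.6 and 14.99 in the SUDHL2 libraries, so the groups did not overlap. The difference was −0.63 (SE 0.189, limma adjusted p = 0.133), and the exact two-sided permutation test gave p = 0.1, the smallest that 3 libraries against 3 allow. Without the sc4 pair the difference was −0.41 (limma adjusted p = 0.133). Within the TMD8 label the libraries with EGR1 hairpins read higher than sc4, by 0.50 and 0.36 on the log2 scale, and within the SUDHL2 label they read lower, by −0.30 and −0.17. The level of the target therefore does not check the hairpin labels under TMD8. Of the list of immediate early genes 25 of 36 were tested and 1 passed, against 2.3% of all tested genes. It was NR4A3, an orphan nuclear receptor induced along with EGR1 by antigen receptor signals. NR4A3 read 2.73, 4.92 and 5.39 scaled FPKM in the TMD8 libraries, against 0.662, 1.40 and 2.10 in the SUDHL2 libraries (log2 difference 1.17, SE 0.175, limma adjusted p = 0.0328).

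Of the 35 gene lists, that of interferon-induced genes held the most genes past the test, and all of those past the test were lower under the TMD8 label. Of the 54 genes on the list 44 were tested, of which 32 were lower, 0 higher and 12 did not pass, against 1.29% of all tested genes lower. Their median difference was −1.64 against 0.04 over all tested genes, and 28 were at least 2-fold lower in all 3 pairs. Of the 44, 41 lay below 0 in all 3 pairs, and the share of all tested genes that did so is not given here. The median of the 44 was −1.62 in the sc4 pair, −1.55 in the shEGR1#8 pair and −1.67 in the shEGR1#9 pair. Over all tested genes these medians were 0.08, −0.02 and 0.03. In bulk RNA, a lower level in every cell and fewer cells with the gene on cannot be told apart. The summed level of the list was 740 to 1297 scaled FPKM in the TMD8 libraries and 2539 to 4906 in the SUDHL2 libraries. The list was chosen with earlier results of these libraries known, so its direction is not independent evidence. How many of its genes passed turned on the filter and the libraries: 0 with no filter, 5 with no block, 14 without the shEGR1#8 pair, 0 without the shEGR1#9 pair and 16 with no block and without the TMD8 sc4 library, where the median was −1.30.

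IFI27, a mitochondrial interferon-induced protein, read 4.94, 118 and 72.0 scaled FPKM under the TMD8 label and 737, 1331 and 1194 scaled FPKM under the SUDHL2 label. Every SUDHL2 library was above every TMD8 library, and the TMD8 sc4 library was lowest. The fitted difference was large beside its error (log2 difference −4.83, SE 0.608, limma adjusted p = 0.0178). MX1, a dynamin-like GTPase that traps viral nucleocapsids, read 18.7, 123 and 99.8 scaled FPKM in the TMD8 libraries and 276, 525 and 502 in the SUDHL2 libraries (log2 difference −2.74, SE 0.324, limma adjusted p = 0.0156). ISG15, a ubiquitin-like modifier, read 33.5, 118 and 84.8 scaled FPKM in the TMD8 libraries, against 217, 515 and 459 in the SUDHL2 libraries (log2 difference −2.40, SE 0.152, limma adjusted p = 0.00219). The groups did not overlap for either gene. USP18, which removes ISG15 from its targets and dampens interferon receptor signalling, read 3.35, 14.4 and 11.1 scaled FPKM under the TMD8 label and 23.4, 56.5 and 58.1 scaled FPKM under the SUDHL2 label (log2 difference −2.23, SE 0.162, limma adjusted p = 0.00362).

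The oligoadenylate synthetases, which activate RNase L on sensing double-stranded RNA, were all lower. OAS1 read 11.4, 28.4 and 26.5 scaled FPKM in the TMD8 libraries and 38.2, 85.1 and 86.4 in the SUDHL2 libraries (log2 difference −1.63, SE 0.128, limma adjusted p = 0.00448). OAS2 read 8.20, 29.9 and 26.0 scaled FPKM in the TMD8 libraries, against 85.1, 147 and 147 in the SUDHL2 libraries (log2 difference −2.65, SE 0.205, limma adjusted p = 0.00448). OAS3 read 1.12, 6.08 and 7.55 scaled FPKM under the TMD8 label and 15.6, 39.8 and 42.8 scaled FPKM under the SUDHL2 label (log2 difference −2.62, SE 0.171, limma adjusted p = 0.00238). OASL, a relative without synthetase activity, read 0.287, 3.72 and 2.38 scaled FPKM in the TMD8 libraries and 4.50, 12.2 and 14.3 in the SUDHL2 libraries (log2 difference −1.92, SE 0.198, limma adjusted p = 0.00915). In each of the 4 genes the SUDHL2 library of a hairpin lay above the TMD8 library of the same hairpin. The groups overlapped for none of them.

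IFITM1, which blocks viral fusion at the cell surface, read 4.15, 54.5 and 31.3 scaled FPKM in the TMD8 libraries, against 142, 409.9 and 362 in the SUDHL2 libraries (log2 difference −3.72, SE 0.334, limma adjusted p = 0.00616). IFITM2 read 7.37, 16.9 and 22.7 scaled FPKM under the TMD8 label and 46.9, 116 and 117 scaled FPKM under the SUDHL2 label (log2 difference −2.52, SE 0.14, limma adjusted p = 0.00219). IFITM3, which acts in endosomes, read 3.04, 7.78 and 10.9 scaled FPKM in the TMD8 libraries and 12.8, 42.8 and 43.0 in the SUDHL2 libraries (log2 difference −1.99, SE 0.163, limma adjusted p = 0.0054). The groups did not overlap for any of the 3, but the IFITM genes are near-identical in places, so how reads were split among them is uncertain. IFI6, an antiviral protein of the endoplasmic reticulum, read 1.82, 14.7 and 10.2 scaled FPKM in the TMD8 libraries, against 35.2, 94.7 and 75.1 in the SUDHL2 libraries (log2 difference −3.02, SE 0.227, limma adjusted p = 0.00417). IFIT3 and IFIT1, which bind viral RNA as a complex, differed by −2.42 and −1.97 (limma adjusted p = 0.00219 and 0.00616). Both were lower under the TMD8 label in all 3 pairs. IFIT2 and IFIT5 of the same family did not pass, at −1.16 and −0.88 (limma adjusted p = 0.102 and 0.101). IFI44L read 0.245, 2.15 and 0.888 scaled FPKM under the TMD8 label and 8.81, 18.8 and 17.2 scaled FPKM under the SUDHL2 label (log2 difference −2.97, SE 0.185, limma adjusted p = 0.00219). Its neighbour IFI44 read 0.264, 1.46 and 0.980 scaled FPKM in the TMD8 libraries and 3.87, 11.8 and 12.1 in the SUDHL2 libraries (log2 difference −2.35, SE 0.207, limma adjusted p = 0.006).

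The transcription factors of the pathway were among the list's lower members too. STAT2, a signal transducer of type I interferon receptors, read 5.79, 11.7 and 11.97 scaled FPKM in the TMD8 libraries, against 9.33, 24.7 and 25.6 in the SUDHL2 libraries (log2 difference −0.89, SE 0.157, limma adjusted p = 0.0469), and the groups overlapped. IRF9, its partner in the complex, missed the threshold at 9.32, 22.7 and 21.4 scaled FPKM under the TMD8 label and 20.5, 36.4 and 34.8 scaled FPKM under the SUDHL2 label (difference −0.80, limma adjusted p = 0.0515). IRF7, which drives interferon production, read 2.58, 11.2 and 13.5 scaled FPKM in the TMD8 libraries and 21.2, 52.8 and 44.6 in the SUDHL2 libraries (log2 difference −2.14, SE 0.204, limma adjusted p = 0.00758). MX2, a paralog of MX1 that acts on retroviruses, read 46.9, 44.3 and 46.4 scaled FPKM in the TMD8 libraries, against 48.1, 64.6 and 64.8 in the SUDHL2 libraries, with a difference of −0.35 (limma adjusted p = 0.252). Under both labels the libraries with EGR1 hairpins read higher than sc4: the median over the 44 genes was 1.16 and 0.96 above sc4 with shEGR1#8 and shEGR1#9 under the TMD8 label, and 1.06 and 0.89 above it under the SUDHL2 label, with no replicate.

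**Figure D3:**
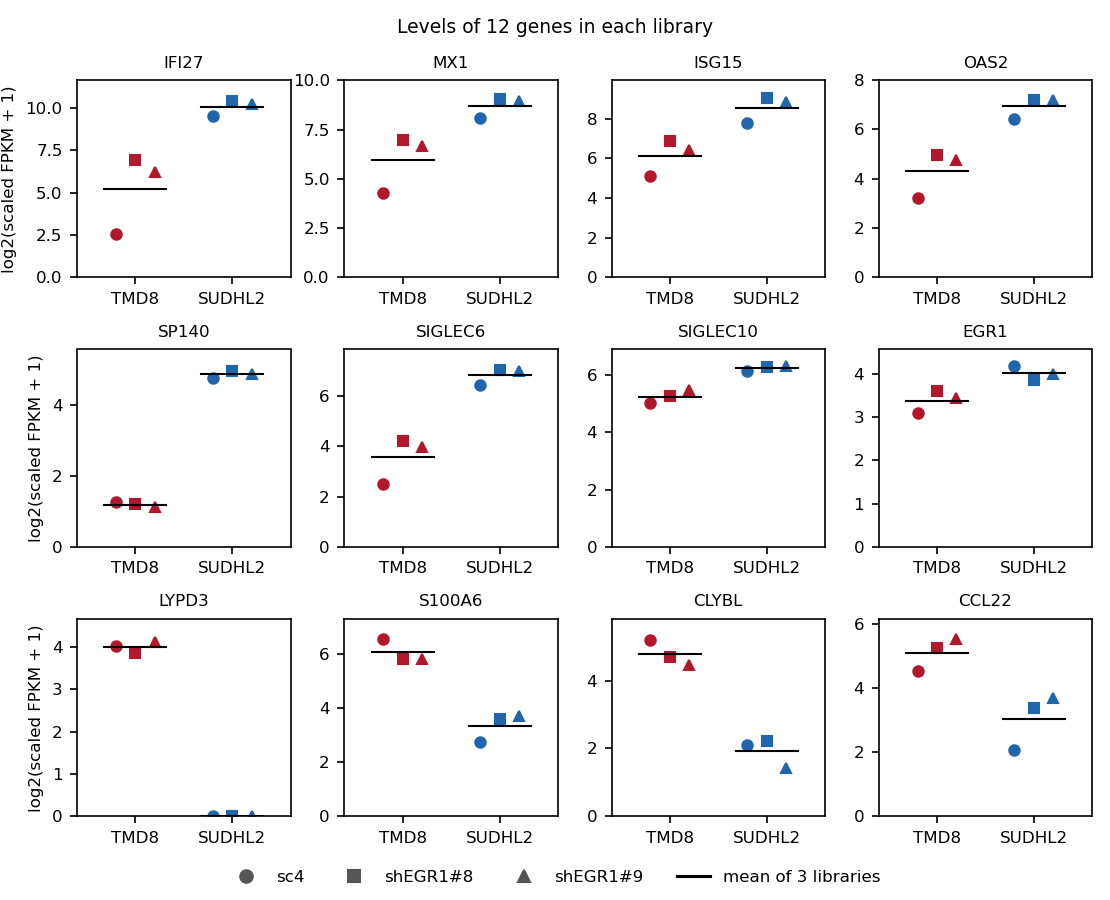
Level of 12 genes in each library as log2(scaled FPKM + 1), TMD8 libraries left and SUDHL2 libraries right, with the hairpin as the symbol and the mean of the 3 libraries as a line. In the first 8 genes every TMD8 library lies below every SUDHL2 library, and in LYPD3, S100A6, CLYBL and CCL22 every TMD8 library lies above.

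Promoters of some of these genes were read for the core of the interferon-stimulated response element, searched as GAAANNGAAA on both strands. The sequences are the 250 bases before the start of 5 genes, from RefSeq on GRCh38.p14: the 4 genes of the interferon list with the largest differences and LYPD3, the gene with the largest difference in the other direction. Letters in capitals are matches.
IFI27, chr14:94110486-94110735, plus strand: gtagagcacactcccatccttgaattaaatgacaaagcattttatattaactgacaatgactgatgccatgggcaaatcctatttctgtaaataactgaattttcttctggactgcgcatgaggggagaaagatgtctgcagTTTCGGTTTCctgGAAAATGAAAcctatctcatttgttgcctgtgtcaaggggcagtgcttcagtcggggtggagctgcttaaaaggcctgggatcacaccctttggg
IFITM1, chr11:313790-314039, plus strand: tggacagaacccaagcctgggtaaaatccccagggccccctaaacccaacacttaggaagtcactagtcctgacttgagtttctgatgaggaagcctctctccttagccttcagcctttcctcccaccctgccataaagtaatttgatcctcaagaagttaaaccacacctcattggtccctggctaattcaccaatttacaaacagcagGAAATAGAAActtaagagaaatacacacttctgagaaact
IFI6, chr1:27672193-27672442, minus strand: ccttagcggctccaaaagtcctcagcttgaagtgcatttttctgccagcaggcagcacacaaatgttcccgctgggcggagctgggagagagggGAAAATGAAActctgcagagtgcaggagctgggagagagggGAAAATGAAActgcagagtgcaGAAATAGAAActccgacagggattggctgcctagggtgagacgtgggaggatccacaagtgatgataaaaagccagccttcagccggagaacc
IFI44L, chr1:78620198-78620447, plus strand: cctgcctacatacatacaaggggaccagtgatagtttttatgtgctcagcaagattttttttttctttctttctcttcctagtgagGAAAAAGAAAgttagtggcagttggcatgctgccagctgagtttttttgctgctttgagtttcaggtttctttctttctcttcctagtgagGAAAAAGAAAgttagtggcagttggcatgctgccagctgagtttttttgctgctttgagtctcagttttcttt
LYPD3, chr19:43465609-43465858, minus strand: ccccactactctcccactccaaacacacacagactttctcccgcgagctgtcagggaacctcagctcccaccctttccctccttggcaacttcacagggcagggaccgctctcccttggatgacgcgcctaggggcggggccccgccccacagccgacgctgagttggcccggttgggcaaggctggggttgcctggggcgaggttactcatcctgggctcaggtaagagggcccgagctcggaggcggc

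IFI6 held 3 matches, IFI27 and IFI44L 2 each, IFITM1 1 and LYPD3 0. Of the tested genes that matched a RefSeq promoter (8753 of 10830), 3.39% held a match in these bases, as did 3.71% of all 27305 RefSeq genes with a window. Among genes lower under the TMD8 label it was 25 of 114 (21.9%), and among genes higher under it 5 of 89 (5.62%). Leaving out the interferon list, 7 of 89 lower genes (7.87%) held one. A match is a description of letters, not of a bound site.

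SP140 and its neighbour SP140L were also lower under the TMD8 label. SP140, a chromatin reader of nuclear bodies in lymphocytes, read 1.41, 1.30 and 1.16 scaled FPKM under the TMD8 label and 26.2, 30.1 and 28.3 scaled FPKM under the SUDHL2 label. The spread within each label was small beside the gap, and the means were 1.29 ± 0.122 scaled FPKM under the TMD8 label and 28.2 ± 1.97 under the SUDHL2 label (SD, n = 3 each), a ratio of 21.9 for SUDHL2 over TMD8. The test gave a log2 difference −3.67, SE 0.154, limma adjusted p = 0.000768. SP140L, a close relative next to it in the gene order, read 0.0280, 0 and 0.378 scaled FPKM in the TMD8 libraries and 3.08, 4.54 and 4.36 in the SUDHL2 libraries (log2 difference −2.14, SE 0.206, limma adjusted p = 0.00758). The other members of the family, SP110 and SP100, did not pass, with differences of −0.65 and 0.52. OTOF, a calcium sensor known from the inner ear, read 0.0911, 2.37 and 2.42 scaled FPKM in the TMD8 libraries, against 8.07, 48.4 and 50.7 in the SUDHL2 libraries (log2 difference −3.62, SE 0.213, limma adjusted p = 0.00219).

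Leukocyte receptor genes of the SIGLEC, LILR and LAIR families were picked as a set after their values were seen. Of 28 such genes 14 were tested, 9 were lower and 0 higher under the TMD8 label, against 1.29% of all tested genes lower, and 5 did not pass. All 14 differences were negative with a median of −1.24, against 0.04 over all tested genes. SIGLEC6, which binds sialic acid and carries an inhibitory motif, read 4.73, 17.3 and 14.4 scaled FPKM under the TMD8 label and 85.6, 130.01 and 126 scaled FPKM under the SUDHL2 label (log2 difference −3.27, SE 0.222, limma adjusted p = 0.00254). SIGLEC14, an activating receptor, read 1.59, 8.27 and 6.84 scaled FPKM in the TMD8 libraries and 13.5, 42.1 and 38.1 in the SUDHL2 libraries (log2 difference −2.34, SE 0.144, limma adjusted p = 0.00219). The groups did not overlap for either gene. SIGLEC5 and SIGLEC14 are near-identical at one end and reads may be split between them, so SIGLEC5 (log2 difference −1.97, SE 0.198, limma adjusted p = 0.00871) is uncertain. SIGLEC10, an inhibitory receptor for CD24, read 31.6, 37.4 and 43.0 scaled FPKM in the TMD8 libraries, against 68.9, 76.7 and 78.7 in the SUDHL2 libraries (log2 difference −0.99, SE 0.131, limma adjusted p = 0.0208). LILRB1, an inhibitory receptor for MHC class I, read 21.0, 37.3 and 39.6 scaled FPKM under the TMD8 label and 78.8, 132 and 118 scaled FPKM under the SUDHL2 label (log2 difference −1.74, SE 0.134, limma adjusted p = 0.00448). LILRB4 read 31.7, 50.9 and 51.4 scaled FPKM in the TMD8 libraries and 69.5, 141 and 152 in the SUDHL2 libraries (log2 difference −1.37, SE 0.144, limma adjusted p = 0.00933).

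Many of these genes lie side by side, and neighbouring genes shared their direction in other places too. Of the tested genes 10593 (97.8%) could be placed in the RefSeq gene order, and windows of 25 consecutive tested genes had medians between −0.63 and 0.64 in all but the lowest and highest 1% of 10041 windows. The lowest window ran over 25 genes between RPS9 and TMEM238, with a median of −0.97, 0 genes above 0 and 13 lower past the test, LILRB1, LILRB4, LILRA1 and LAIR2 among them. Of the other genes there, PPP6R1, a regulatory subunit of a protein phosphatase, read 137, 123 and 165 scaled FPKM in the TMD8 libraries, against 299, 297 and 321 in the SUDHL2 libraries (log2 difference −1.11, SE 0.136, limma adjusted p = 0.0168). RDH13, a retinol dehydrogenase, read 7.49, 9.37 and 9.28 scaled FPKM under the TMD8 label and 23.99, 18.4 and 22.3 scaled FPKM under the SUDHL2 label (log2 difference −1.21, SE 0.171, limma adjusted p = 0.0264). The next lowest, separate window ended at SIGLEC5, with a median of −0.78, 1 gene above 0 and 11 lower. It holds POLD1, the catalytic subunit of DNA polymerase delta, which read 47.9, 38.5 and 51.3 scaled FPKM in the TMD8 libraries and 85.6, 80.2 and 85.7 in the SUDHL2 libraries (log2 difference −0.87, SE 0.134, limma adjusted p = 0.0362).

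The highest window ran between MEX3C and TMX3, with a median of 0.78, all 25 genes above 0 and 4 past the test. PHLPP1, a phosphatase that acts on AKT, read 12.4, 15.2 and 15.5 scaled FPKM in the TMD8 libraries, against 4.43, 3.82 and 3.57 in the SUDHL2 libraries (log2 difference 1.63, SE 0.172, limma adjusted p = 0.00933). TNFRSF11A, the receptor RANK that signals to NF-kB, read 2.32, 2.17 and 2.68 scaled FPKM under the TMD8 label and 0.443, 0.787 and 0.463 scaled FPKM under the SUDHL2 label (log2 difference 1.12, SE 0.204, limma adjusted p = 0.0495). In the same window BCL2, the survival factor, read 21.0, 24.4 and 22.5 scaled FPKM in the TMD8 libraries and 14.5, 10.5 and 9.44 in the SUDHL2 libraries (difference 0.94, limma adjusted p = 0.0542). MALT1, the protease of the NF-kB pathway, read 19.3, 17.0 and 14.2 scaled FPKM in the TMD8 libraries, against 8.30, 9.72 and 9.17 in the SUDHL2 libraries (difference 0.81, limma adjusted p = 0.0626). Neither passed. The other high window ran between SMARCA2 and HAUS6, with a median of 0.71, all 25 genes above 0 and 5 past the test. SMARCA2, an ATPase of the SWI/SNF chromatin remodeller, read 136, 115 and 94.7 scaled FPKM under the TMD8 label and 60.2, 42.8 and 41.8 scaled FPKM under the SUDHL2 label (log2 difference 1.25, SE 0.132, limma adjusted p = 0.00942). JAK2, the kinase of many cytokine receptors, read 13.3, 15.1 and 9.76 scaled FPKM in the TMD8 libraries and 4.30, 7.23 and 5.35 in the SUDHL2 libraries (log2 difference 1.05, SE 0.18, limma adjusted p = 0.0447). CD274, the checkpoint ligand PD-L1 that lies near it, read 8.96, 5.97 and 5.14 scaled FPKM in the TMD8 libraries, against 2.15, 3.74 and 4.43 in the SUDHL2 libraries and did not pass (difference 0.80, limma adjusted p = 0.189). Of the 247 placed genes past the test, 51 lay in 20 runs of adjacent tested genes with the same direction, 13 lower and 7 higher. These windows were picked after their values were seen, and overlapping genes may share reads.

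**Figure D4:**
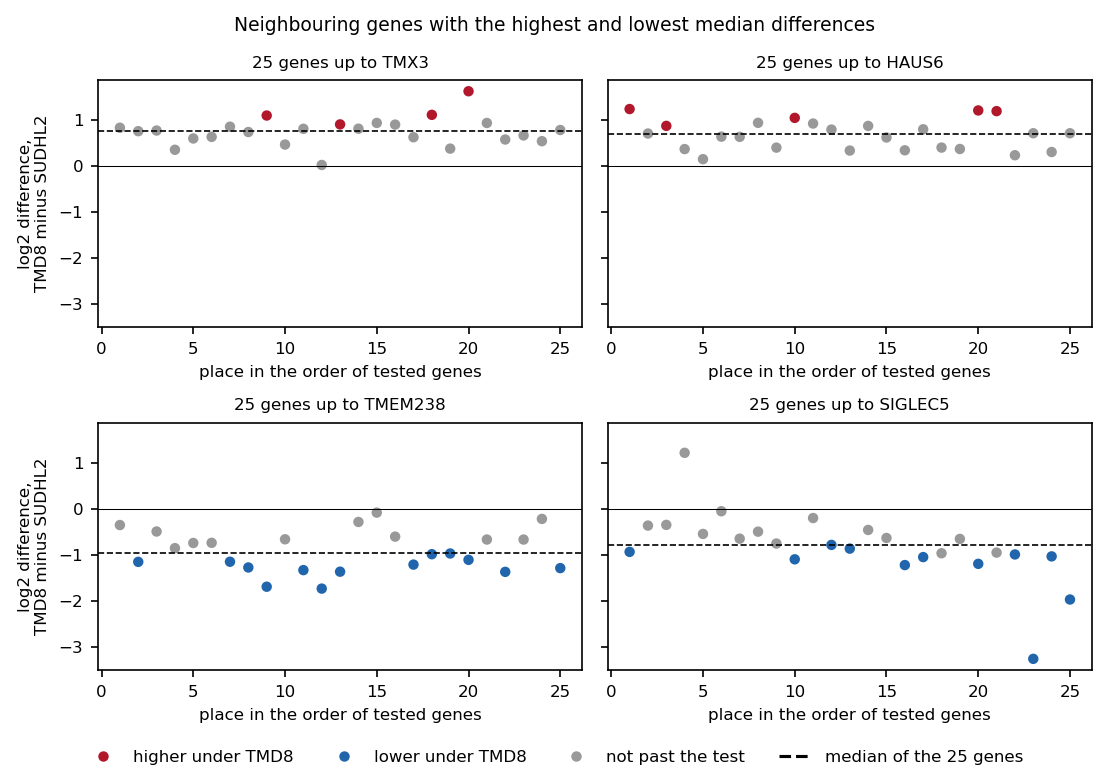
Log2 difference, TMD8 label minus SUDHL2 label, of 25 tested genes in their genomic order (x axis, place in the order) in the windows with the highest (top) and lowest (bottom) median differences. All 25 genes lie above 0 in both top windows, and 0 and 1 of the 25 lie above 0 in the bottom windows.

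Few genes higher under the TMD8 label were on a list. Of the 109, 0 were on the interferon list and 95 on none of the 35 lists, and for the 140 lower genes these numbers were 32 and 94. LYPD3, an anchored surface protein of the Ly6 family, read 15.3, 13.5 and 16.3 scaled FPKM in the TMD8 libraries and was listed at 0 in all 3 SUDHL2 libraries (log2 difference 3.997, SE 0.171, limma adjusted p = 0.000768; the fitted value depends on the pseudocount). It was listed between 0 and 0.192 scaled FPKM in the 9 OCI-LY10 libraries. MT1G, a metallothionein, was the other gene listed at 0 in all 3 SUDHL2 libraries with at least 1 scaled FPKM in every TMD8 library, at 1.16, 5.77 and 1.94 (limma adjusted p = 0.0512). With the labels exchanged the same rule found 0 genes. A listed 0 can be a failed estimate.

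S100A6, a calcium-binding protein, was the most abundant of the 15 genes with the largest gains and read 92.2, 54.9 and 54.9 scaled FPKM under the TMD8 label and 5.67, 11.2 and 11.9 scaled FPKM under the SUDHL2 label (log2 difference 2.71, SE 0.329, limma adjusted p = 0.0168). The groups did not overlap, and the other S100 genes tested did not pass. Among them only S100A11 had a negative difference, also without overlap. It read 16.8, 16.3 and 11.0 scaled FPKM in the TMD8 libraries, against 26.4, 54.0 and 52.5 in the SUDHL2 libraries (difference −1.48, limma adjusted p = 0.0546). CLYBL, a mitochondrial lyase of the vitamin B12 pathway, read 35.6, 24.8 and 20.9 scaled FPKM in the TMD8 libraries and 3.31, 3.64 and 1.68 in the SUDHL2 libraries (log2 difference 2.86, SE 0.177, limma adjusted p = 0.00219). Its neighbours in the gene order ZIC5 and ZIC2, zinc finger factors of early development, were higher too. ZIC2 read 17.1, 14.3 and 18.97 scaled FPKM in the TMD8 libraries, against 6.66, 4.46 and 6.18 in the SUDHL2 libraries (log2 difference 1.40, SE 0.147, limma adjusted p = 0.00933). OR51B5, an olfactory receptor gene, read 23.3, 8.84 and 9.33 scaled FPKM under the TMD8 label and 1.21, 0.544 and 0 scaled FPKM under the SUDHL2 label (log2 difference 3.17, SE 0.212, limma adjusted p = 0.00254). Beside it, HBE1, the embryonic epsilon globin, read 9.26, 6.79 and 3.96 scaled FPKM in the TMD8 libraries and 2.41, 0 and 0.548 in the SUDHL2 libraries (log2 difference 2.08, SE 0.297, limma adjusted p = 0.0276). Both were low in the SUDHL2 libraries, and HBE1 reached no more than 9.26 scaled FPKM. They lie next to each other in the order of tested genes, and reads from one cannot be told from the other where the counting ignored strand.

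CCL22, a chemokine that attracts T cells through CCR4 and a target of NF-kB, read 22.1, 37.1 and 44.8 scaled FPKM in the TMD8 libraries, against 3.21, 9.41 and 11.7 in the SUDHL2 libraries (log2 difference 2.06, SE 0.173, limma adjusted p = 0.00575). CX3CL1, its neighbour and also a chemokine, read 9.22, 4.78 and 11.2 scaled FPKM under the TMD8 label and 2.21, 2.18 and 4.05 scaled FPKM under the SUDHL2 label (log2 difference 1.27, SE 0.201, limma adjusted p = 0.0371). CD83, an activation marker of B cells, read 95.05, 80.4 and 97.1 scaled FPKM in the TMD8 libraries and 33.9, 43.1 and 41.8 in the SUDHL2 libraries (log2 difference 1.18, SE 0.155, limma adjusted p = 0.0205). The groups did not overlap for any of the 3. RELB, a subunit of NF-kB, was lower at 17.9, 17.4 and 24.03 scaled FPKM in the TMD8 libraries, against 34.3, 38.8 and 37.4 in the SUDHL2 libraries (log2 difference −0.88, SE 0.15, limma adjusted p = 0.0447). Of the 28 tested members of the NF-kB list 2 were higher and 1 lower, against 1.01% and 1.29% of all tested genes. The 25 others did not pass, with a median over the list of 0.00 (0.20 in the sc4 pair, and −0.14 and −0.12 in the shEGR1#8 and shEGR1#9 pairs).

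The other genes among the 15 with the largest gains reached at most 30.1 scaled FPKM. CPNE2, a copine that binds membranes in the presence of calcium, read 30.1, 19.5 and 22.6 scaled FPKM under the TMD8 label and 5.07, 5.42 and 5.94 scaled FPKM under the SUDHL2 label (log2 difference 1.93, SE 0.181, limma adjusted p = 0.00734). FGFBP2, a secreted protein of cytotoxic lymphocytes, read 5.54, 10.6 and 13.5 scaled FPKM in the TMD8 libraries and 0.117, 2.76 and 2.43 in the SUDHL2 libraries (log2 difference 2.08, SE 0.216, limma adjusted p = 0.0093). MRC1, the mannose receptor of macrophages, read 7.29, 8.50 and 6.62 scaled FPKM in the TMD8 libraries, against 1.02, 1.98 and 1.21 in the SUDHL2 libraries (log2 difference 1.83, SE 0.172, limma adjusted p = 0.00734). The T, NK and myeloid markers beside them are given above and did not pass the test. MTSS1, ADTRP, ADAP1, MGST2 and the unannotated transcript LOC101927437 had differences of 1.76, 1.67, 1.67, 1.93 and 2.72 (limma adjusted p = 0.0168, 0.0173, 0.0168, 0.0483 and 0.00448), each at least 2-fold higher in all 3 pairs.

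The 18 tested B-cell lineage markers had a median difference of −0.09, and 0 were higher. CD37, a tetraspanin of B cells, read 125, 81.1 and 111 scaled FPKM under the TMD8 label and 209, 212 and 177 scaled FPKM under the SUDHL2 label without overlap but missed the threshold (log2 difference −0.93, SE 0.175, limma adjusted p = 0.0541). MS4A1, which encodes CD20, read 199, 68.0 and 85.3 scaled FPKM in the TMD8 libraries and 87.4, 79.2 and 66.2 in the SUDHL2 libraries. The TMD8 sc4 library was the highest of the 6, and the other TMD8 libraries lay within the SUDHL2 range. CD79B, CD22, BLNK and CD24 differed by 0.19, −0.16, −0.09 and −0.02, and CD72, EBF1 and FCRLA by 0.44, 0.30 and 0.08. BLK, BANK1, POU2AF1 and VPREB3 had negative differences of −0.58, −0.81, −0.57 and −0.54, and TNFRSF13C and TNFRSF13B, the BAFF receptor and TACI, differed by 0.07 and −0.19. None of these passed.

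In the plasma cell list 2 of 15 tested genes were higher and 2 lower, against 1.01% and 1.29% of all tested genes. SDC1, the surface proteoglycan CD138, read 3.63, 3.51 and 5.35 scaled FPKM in the TMD8 libraries, against 1.25, 1.45 and 1.74 in the SUDHL2 libraries (log2 difference 1.05, SE 0.177, limma adjusted p = 0.0445). SEC11C, a subunit of the signal peptidase, read 154, 70.6 and 65.3 scaled FPKM under the TMD8 label and 67.7, 43.1 and 35.5 scaled FPKM under the SUDHL2 label (log2 difference 0.91, SE 0.146, limma adjusted p = 0.0377). CD38, a surface enzyme, was lower at 0.527, 1.72 and 1.59 scaled FPKM in the TMD8 libraries and 2.29, 8.69 and 7.56 in the SUDHL2 libraries (log2 difference −1.55, SE 0.209, limma adjusted p = 0.0222). So was the receptor FCRL5, at 23.8, 24.2 and 25.2 scaled FPKM in the TMD8 libraries, against 38.6, 41.0 and 43.7 in the SUDHL2 libraries (log2 difference −0.73, SE 0.128, limma adjusted p = 0.0468). All 16 tested germinal centre genes and all 19 tested genes of the activated B-cell-like list missed the threshold. BATF and SPIB, factors of the activated B-cell-like subtype, differed by −0.11 and −0.46. Of 29 B-cell receptor and MYD88 signalling genes 2 were lower, against 1.29% of all tested genes. VAV1, an exchange factor downstream of the receptor, read 22.1, 23.8 and 25.7 scaled FPKM under the TMD8 label and 39.97, 42.1 and 47.7 scaled FPKM under the SUDHL2 label (log2 difference −0.83, SE 0.127, limma adjusted p = 0.0358). DOCK8 read 8.84, 9.46 and 11.1 scaled FPKM in the TMD8 libraries and 14.3, 18.5 and 20.9 in the SUDHL2 libraries (log2 difference −0.80, SE 0.143, limma adjusted p = 0.0477).

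JAK-STAT genes passed in both directions, with 2 higher and 3 lower of 25 tested, against 1.01% and 1.29% of all tested genes. Beside JAK2 and STAT2, these included IL13RA1 and IL6. IL13RA1, a chain of the IL13 receptor, read 3.38, 3.35 and 3.92 scaled FPKM in the TMD8 libraries, against 0.685, 1.54 and 0.794 in the SUDHL2 libraries (log2 difference 1.20, SE 0.212, limma adjusted p = 0.0468). The cytokine IL6 was lower at 9.53, 8.48 and 10.8 scaled FPKM under the TMD8 label and 21.4, 34.6 and 37.7 scaled FPKM under the SUDHL2 label (log2 difference −1.57, SE 0.19, limma adjusted p = 0.0168). The TMD8 and SUDHL2 libraries did not overlap for either. Of the 40 tested lymphoma tumour suppressors and oncogenes 2 were lower, against 1.29% of all tested genes. The kinase SGK1 read 12.6, 7.42 and 5.92 scaled FPKM in the TMD8 libraries and 24.9, 25.2 and 17.7 in the SUDHL2 libraries (log2 difference −1.34, SE 0.178, limma adjusted p = 0.0217). KLHL6, an adaptor of a ubiquitin ligase, read 0.347, 1.18 and 0.549 scaled FPKM in the TMD8 libraries, against 2.70, 3.71 and 2.85 in the SUDHL2 libraries (log2 difference −1.30, SE 0.189, limma adjusted p = 0.0298). BAX, a pore-forming killer of the BCL2 family and a p53 target, was lower at 126, 132 and 164 scaled FPKM under the TMD8 label and 275, 243 and 250.2 scaled FPKM under the SUDHL2 label (log2 difference −0.87, SE 0.151, limma adjusted p = 0.0461). It was the only member past the test of 25 tested on the BCL2 list and of 21 on the p53 list, against 2.3% of all tested genes. ITGAL, an integrin chain of LFA-1, was lower at 13.9, 19.9 and 24.2 scaled FPKM in the TMD8 libraries and 27.1, 34.8 and 48.9 in the SUDHL2 libraries (log2 difference −0.89, SE 0.132, limma adjusted p = 0.0313). Of 23 tested adhesion genes it alone passed, against 2.3% of all tested genes. TNFRSF14, the receptor HVEM, was lower at 1.70, 2.40 and 3.23 scaled FPKM in the TMD8 libraries, against 3.92, 7.89 and 6.93 in the SUDHL2 libraries (log2 difference −1.05, SE 0.184, limma adjusted p = 0.0461).

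Few growth genes passed the test. Of 41 DNA replication genes 1 was higher and 2 lower, against 1.01% and 1.29% of all tested genes. The thymidylate synthase TYMS read 101, 65.9 and 80.5 scaled FPKM under the TMD8 label and 49.4, 44.3 and 41.1 scaled FPKM under the SUDHL2 label (log2 difference 0.84, SE 0.147, limma adjusted p = 0.0461). The lower ones were POLD1 and the chromatin assembly subunit CHAF1A (log2 difference −0.81, SE 0.139, limma adjusted p = 0.0447). No member passed among 24 cyclins, CDKs and their inhibitors, 40 mitosis genes, 37 MYC and nucleolar genes, 24 unfolded protein response genes, 29 glycolysis genes, 25 cholesterol synthesis genes and 36 oxidative phosphorylation genes, and their medians lay between −0.10 and 0.20. In the sc4 pair these medians were −0.01 to 0.42, and in the other pairs −0.42 to 0.19. Ribosomal protein genes had a median of 0.27, with 0.53 in the sc4 pair, 0.065 in the shEGR1#8 pair and 0.11 in the shEGR1#9 pair. Of these genes 1 of 73 was higher, against 1.01% of all tested genes. RPL17 read 4136, 1963 and 1750.5 scaled FPKM in the TMD8 libraries and 1346, 991 and 939.5 in the SUDHL2 libraries (log2 difference 1.17, SE 0.197, limma adjusted p = 0.0438). Its reads may be shared with near-identical copies and with the readthrough gene beside it. The list summed to 119283 to 203798 scaled FPKM in the TMD8 libraries and 115164 to 146009 in the SUDHL2 libraries.

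Of 50 replication-dependent histone genes 2 were higher, against 1.01% of all tested genes. The list's median of −0.25 rests on the TMD8 sc4 library, since it was −3.28 in the sc4 pair, against 0.64 in the shEGR1#8 pair and 1.51 in the shEGR1#9 pair. HIST1H1C read 235, 305 and 454 scaled FPKM in the TMD8 libraries, against 118, 138 and 165 in the SUDHL2 libraries (log2 difference 1.19, SE 0.148, limma adjusted p = 0.0168). HIST1H2BK read 201, 172 and 274 scaled FPKM under the TMD8 label and 71.3, 109 and 93.6 scaled FPKM under the SUDHL2 label (log2 difference 1.23, SE 0.202, limma adjusted p = 0.0403). HIST1H1B, a linker histone, read 2.70, 100.2 and 285 scaled FPKM in the TMD8 libraries and 105, 73.2 and 107 in the SUDHL2 libraries, so the TMD8 libraries lay on both sides of the SUDHL2 libraries. Its difference of −0.99 became 0.93 (limma adjusted p = 1.35e-07) without the sc4 pair. With only 2 pairs left, that p leans on variance pooled over genes and does not measure the spread of HIST1H1B itself. Among imprinted genes 1 of 17, PEG10, was higher, against 1.01% of all tested genes. This retrotransposon-derived gene read 4.64, 4.34 and 3.63 scaled FPKM in the TMD8 libraries, against 0.936, 0.733 and 1.21 in the SUDHL2 libraries (log2 difference 1.41, SE 0.198, limma adjusted p = 0.0262). PCDHGC3, a protocadherin, was lower at 1.504, 2.93 and 4.19 scaled FPKM under the TMD8 label and 8.71, 13.6 and 15.1 scaled FPKM under the SUDHL2 label (log2 difference −1.83, SE 0.159, limma adjusted p = 0.006). MHC class I and class II genes held no gene past the test among 7 and 8 tested. Of each list 9 genes were listed at 0 in all 6 libraries, and HLA genes are uncertain because near-identical copies share reads.

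**Figure D5:**
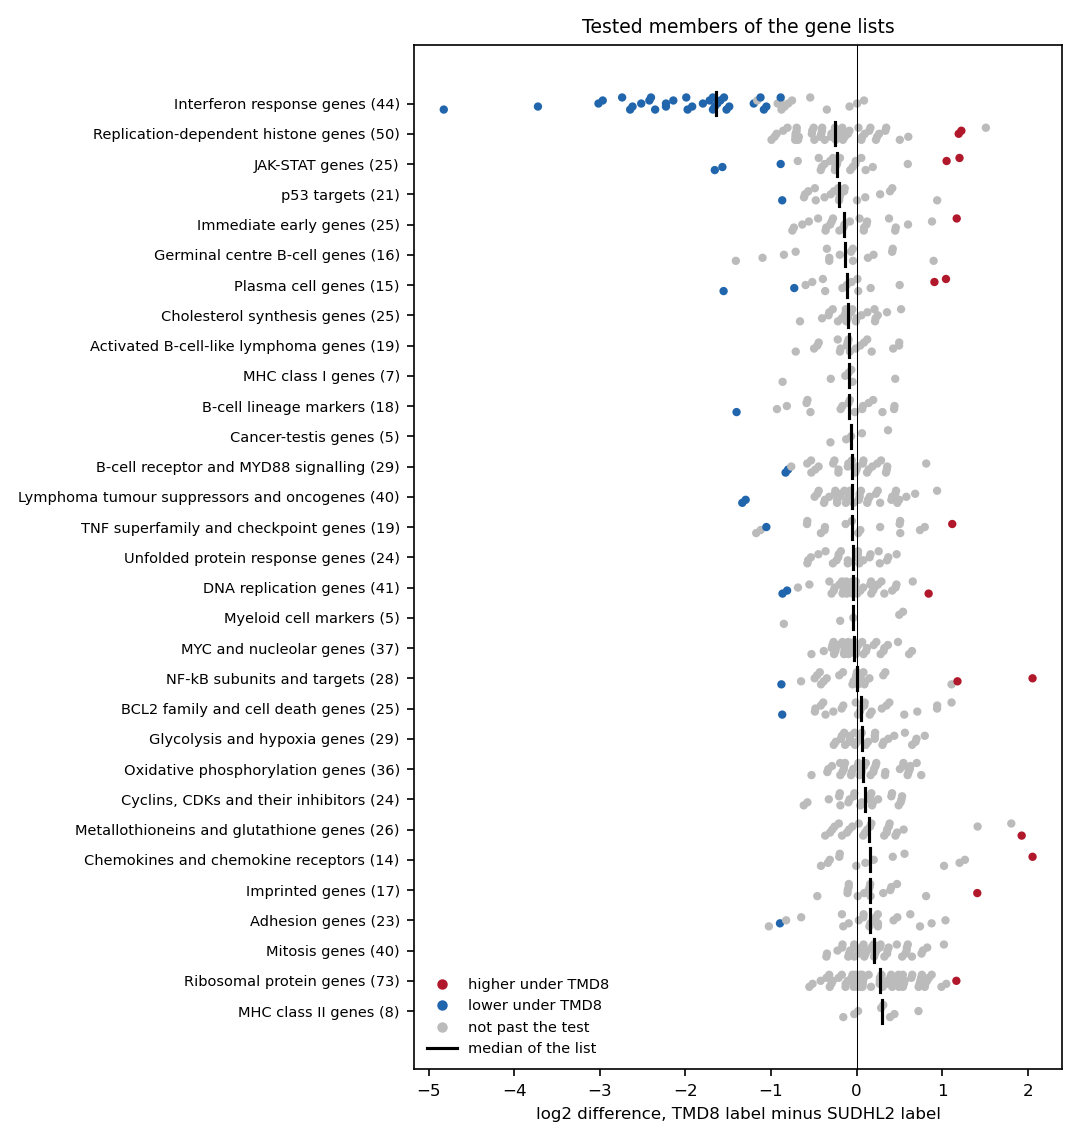
Log2 difference, TMD8 label minus SUDHL2 label, of each tested member of the gene lists with at least 5 tested members (number tested in brackets), with the median of a list as a black line. The interferon list has a median of −1.64, and every other list shown has a median between −0.25 and 0.30.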

How the data were processed

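Per the labels' protocols, the 6 RNA libraries were prepared with Illumina's TruSeq RNA reagents. Bowtie2, HISAT, StringTie and the build hg19 are named in the submitters' processing notes. The authors deposited 1 table per cell line with 1 value for each gene in each library, taken here as FPKM from its range and sums, since the unit is not given in the sources used here. Read depth is unknown. Whether the counting used strand is not given either. In the SUDHL2 table the 430 lines from ZZZ3 on, which run into the end of the TMD8 table, were left out, as were 10 lines with a repeated name in each table and names in the form of a date. Each table may have had its own normalization, so levels across them rest on the median-ratio scaling over 13010 genes (factors 0.975 to 1.03).

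Short RNA genes (names starting with MIR and a digit, SNOR, SCARNA, RNU, RN7, VTRNA or RNY) were left out. Genes with at least 1 scaled FPKM in at least 3 libraries were tested with limma 3.58.1 (R 4.3.3) on log2(scaled FPKM + 1), with the label and the hairpin pair as terms, a mean-variance trend and Benjamini-Hochberg adjustment over all 10830 genes. The method was checked on simulated data. A single value was also tested with an exact permutation test (scipy 1.17.1). XIST and Y-linked genes were tested but are not named. A few other results are not reported here.

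Named genes are EGR1, the 15 genes past the test with the largest difference in each direction (at least 2-fold in all 3 pairs and a mean of at least 5 scaled FPKM under the higher label), the tested B-cell lineage markers and, of the 4 members of each list with the largest differences, those past the test; genes picked for their place beside others or their family are named as such. The comparison, members and lists were chosen with earlier results of these data known. Promoters come from RefSeq (GRCh38.p14), matched by symbol or older symbol. Because under 80% of the tested interferon genes matched a promoter (79.5%), no share is given for that list. Alternatives covered the pseudocount, filter, scaling, short RNA genes, block, trend, library weights and each pair left out.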

Additional observations from a re-analysis of the deposited data

Results flagged for a closer look

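EGR1, the target of the hairpins, lay above the sc4 library under one label and below it under the other. Relative to the sc4 library of the same label it was 0.50 and 0.36 higher on the log2 scale in the TMD8 libraries shEGR1#8 and shEGR1#9, and the differences in the SUDHL2 libraries shEGR1#8 and shEGR1#9 were −0.30 and −0.17. Both libraries of one label lie above 0 and both of the other below it, and the difference between the labels was not tested, since each library is the only one of its kind.

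Short RNA genes, which the comparison leaves out, took a larger share of the FPKM in 2 libraries than in the sc4 library of the same label. Under the TMD8 label they took 60.5% with shEGR1#8 and 55.5% with shEGR1#9, against 36.3% with sc4. Under the SUDHL2 label the sc4 library had the highest share of the 3, at 53.9%.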

How the results depend on the processing

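Of the 30 genes with the largest differences, 22 to 30 stayed past the threshold in the same direction when the pseudocount, scaling, short RNA genes, trend or library weights were changed or the sc4 pair was left out, 16 with no replicate block, 18 and 2 without the shEGR1#8 and shEGR1#9 pairs, and 0 with no filter. The cause was not tested. The block rests on the hairpin label: deviations from the label's mean correlated between same-hairpin libraries at 0.37 for sc4, 0.04 for shEGR1#8 and 0.40 for shEGR1#9, so the data do not show a pairing of every hairpin. Counts of higher and lower genes were 0 and 0 with no filter on low values (limma, 2501 at an unadjusted p under 0.05), 180 and 265 with quantile normalization, 155 and 351 with equal sums, 15 and 45 with short RNA genes kept, 40 and 46 with no replicate block and 692 and 574 with array weights. Leaving out a pair gave 1 to 708 higher and 1 to 689 lower. Of the interferon genes 0 were lower with no filter, 5 with no replicate block, 16 with no block and without the TMD8 sc4 library, and 0 to 41 without a pair. Their median difference was −1.73 with equal sums and −1.30 with no block and without the TMD8 sc4 library. Genes at least 2-fold apart in every pair were 79 higher with a pseudocount of 0.1, 5 higher and 15 lower at 4-fold, and 65 to 101 higher without a pair. The median Pearson correlation between labels was 0.922 with short RNA genes kept, against 0.961.

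EGR1 passed with array weights (−0.56, limma adjusted p = 0.0434). Differences that changed sign were TNFRSF13C (−0.032) and FCRLA (−0.037) with equal sums, and HIST1H1B (0.44) and CD79A (0.069) with array weights. With no block and without the TMD8 sc4 library they were HIST1H1B (0.85), MS4A1 (−0.018), CD79A (0.031), TNFRSF13B (0.12) and FCRLA (−0.0052). Without a pair the ranges were −2.20 to 0.93 for HIST1H1B, −0.13 to 0.24 for FCRLA, −0.22 to 0.022 for CD79A, −0.23 to 0.069 for BLNK, −0.25 to 0.20 for CD24 and −0.30 to 0.49 for TNFRSF13C. Without the sc4 pair HIST1H1B and TNFRSF13C passed the test (limma adjusted p = 1.35e-07 and 0.0431).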
